A study of Mus musculus with 6 samples.

Results

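Kinesins are motor proteins that burn ATP to walk along microtubules or to take them apart. One set builds and elongates the mitotic spindle and cuts the dividing cell in 2, another carries vesicles, mitochondria and synaptic precursors down axons, and others move cargo along cilia or set their length. Hair cells bear a kinocilium during development, which the mature mammalian cochlea loses, supporting cells keep a primary cilium, and the afferent fibres under the hair cells depend on axonal transport. The kinesin genes were chosen by symbol alone, as every probe set that the array annotation assigned to a single gene named Kif with a number, Kifc with a number, Kifap3 or Klc with a number. This gave 112 probe sets of 45 genes, out of 45101 probe sets on the array. From textbook roles, 14 genes were grouped as mitotic, 13 as axonal, 9 as ciliary and 8 as other, while Kif28 was left without a class. The axonal class includes the light chains Klc1, Klc3 and Klc4, which tie kinesin-1 to its cargo, and the ciliary class includes Kifap3, which holds the kinesin-2 motors together. Cenpe, the kinesin of kinetochores, does not carry a Kif symbol and was counted with the spindle partners.

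RNA of cochlear sensory epithelia (CSE) was measured in Swiss Webster mice at postnatal day 3 (P3) and in adults 8 weeks old, with 3 arrays per stage and no genetic or drug treatment in either group. Each array held a pool from 20 mice, and the 3 pools of a stage came from separate dissections of 60 mice in all, so that the spread between arrays is that between pools. The study describes greater and lesser epithelial ridges in the P3 tissue and, in the adult, inner sulcus and interdental cells beside the hair and supporting cells, so the stages differ in their cells as well as in age. Values are MAS5.0 signals, which are intensities on a linear scale with a trimmed mean of 100 on each array. A probe set was measured when it lay above the background level of the array on at least 3 of the 6 arrays. It was called when limma's Benjamini-Hochberg adjusted p was under 0.05 and the geometric means differed at least 2-fold. Log2 fold changes are adult minus P3. A gene is represented by its brightest measured probe set unless another is named, and signals are not compared between genes. With 3 arrays per stage the smallest p of an exact permutation test is 0.1, and for single genes it is therefore stated whether the arrays of the stages overlapped.

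The arrays were not alike in quality. P3 replicate 1 had a background level of 34.5, against 6.29 to 16.3 on the other arrays, and 58 of the 112 kinesin probe sets lay above it, against 70 to 90 elsewhere. Its 3' to 5' signal ratio for Gapdh was 82.0, and adult replicate 1 was next with 2.07. For several genes below, the value without one of these arrays is given. Markers of supporting cells were measured for all 12 genes with a probe set of their own. Of 11 hair cell markers with a probe set, 9 were measured, whereas Slc26a5, the motor protein of outer hair cells, was above background on no array and Tmc1, a channel subunit of mechanotransduction, on 1.

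Of the 45 kinesin genes, 38 were measured and 84 of the 112 probe sets. The other 7 genes, Kif2b, Kif14, Kif15, Kifc5b, Kif27, Kif12 and Kif28, gave no usable value. In all, 3 genes were called higher at P3 and 3 in the adult. Those higher at P3 were Kif22, a chromokinesin that pushes chromosome arms, Kif7, the Hedgehog regulator at the tip of the primary cilium, and Kif26b, a kinesin of kidney and limb development. Higher in the adult were the light chains Klc1 and Klc3 and Kif13b, which carries membrane vesicles. These calls are 7.89% of the measured genes in each direction and 15.8% in both together. Over all genes at their brightest probe set, 5.49% were called higher at P3, 4.53% in the adult and 10.03% in either direction. Of the measured kinesin probe sets 4.76% were called in each direction and 9.52% in either, beside 3.87%, 3.39% and 7.26% of all probe sets tested. With 6 genes called, these shares give no result about kinesins as a family. The classes differed in the direction of change. All 10 measured mitotic genes were lower in the adult and 12 of 13 axonal genes higher, while 47.7% of all probe sets tested were lower in the adult.

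**Figure D1:**
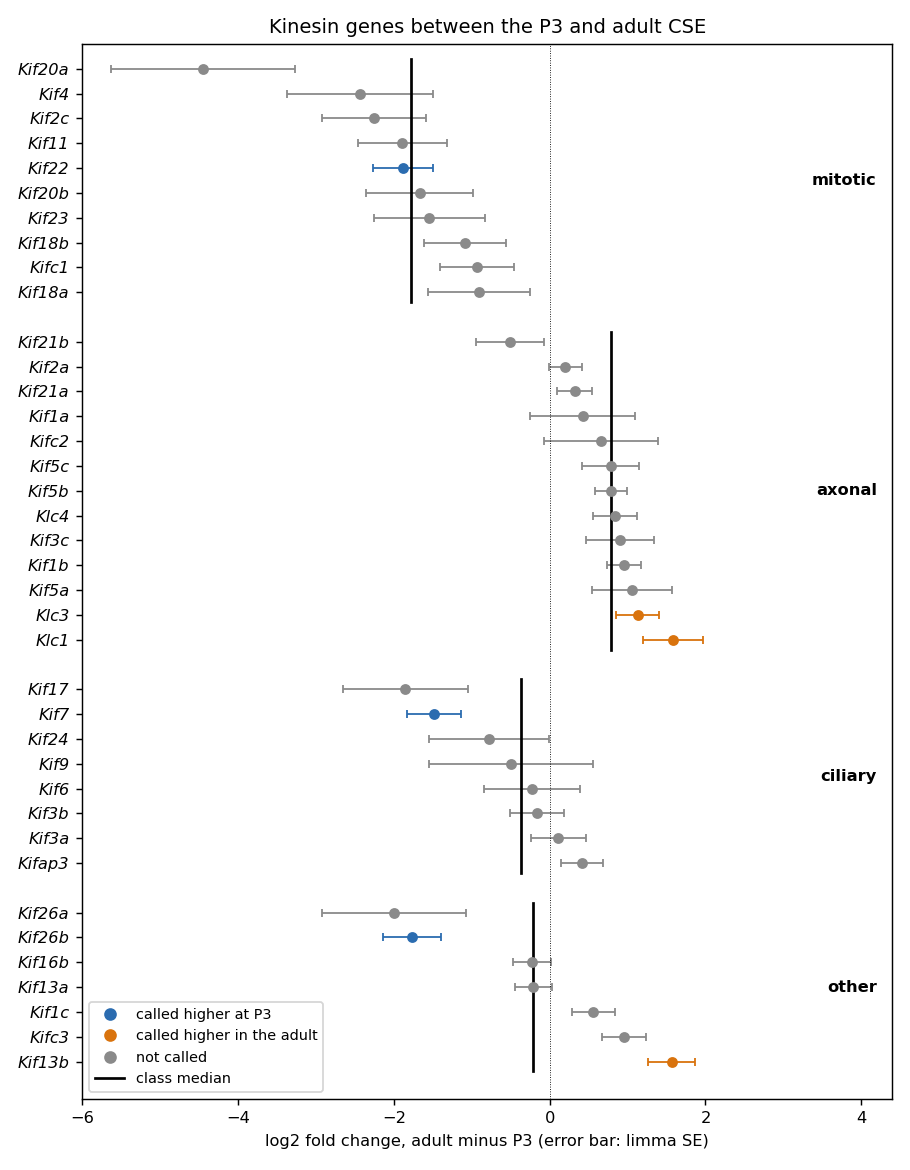
Horizontal axis, log2 fold change of adult minus P3 for the 38 measured kinesin genes, 1 row per gene and grouped by class, with limma's standard error as the bar and a black line at each class median. The mitotic genes all lie left of 0, with a median of -1.77 and Kif20a drawn at its fitted value although its adult level is only bounded, and the axonal genes other than Kif21b right of it, with a median of 0.79, while the ciliary median is -0.36 and the median of the other genes -0.21.

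The mitotic kinesins were lower in the adult CSE as a class. Their median log2 fold change was -1.77, and the values of the 9 genes other than Kif20a ranged from -2.44 to -0.90. For Kif20a only a bound can be given, which leaves the median at -1.77, beside a median of 0.04 over all probe sets tested. Only Kif22 passed the test. An unadjusted p under 0.05 was reached by 6 of the 10, beside 23.7% of all probe sets tested in either direction. On 8 of the 10 genes the arrays of the stages did not overlap, all 8 lower in the adult, where 15.6% of all probe sets tested showed that separation. For Kif4 and Kifc1, among the 8, the signals on P3 replicate 1 were 16.3 and 24.9. Both are below the background of that array, 34.5, so their separation is uncertain. These genes were measured mostly through their P3 signals. All 10 were above background on P3 replicates 2 and 3, and 6 on P3 replicate 1. Only 2, Kif22 and Kif18b, were above it on all 3 adult arrays. A mitotic gene low at both stages would therefore have been left out, and the 4 mitotic genes not measured carry no direction. In a bulk sample, fewer dividing cells and less mitotic RNA per cell cannot be told apart.

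The promoters of these genes are shown because the measured members moved together. Many genes of the late cell cycle carry a cell cycle homology region, here searched as TTTGAA, and a CCAAT box, searched as CCAAT, both on either strand and with no overlap between them required. Of the 45 kinesin genes, 37 had an entry in the RefSeq promoter table, and the 250 bases before the start were searched. The CCAAT box was found in 9 of 13 mitotic genes and the homology region in 5, with both in Kif22, Kif11 and Kif14. The 13 include Kif14, Kif15, Kif2b and Kifc5b, which were not measured, and Kif18a and Kif20b, which held neither motif. Both motifs were also found in Kif26b, of the other class, and in the ciliary gene Kif27. Among 9 axonal genes the CCAAT box was found in 3 and the homology region in 1, and among 9 ciliary genes in 6 and 1, so the CCAAT box was about as frequent in the ciliary as in the mitotic genes. Over all 32851 promoters of the table, 33.8% held the first, 16.0% the second and 5.55% both. These are matches of letters and not sites of binding. The 120 bases before the start follow for 3 mitotic genes that hold matches and for Klc1, the axonal gene with the largest change. They run 5' to 3' on the strand of the gene (GRCm38.p6), with the matches in capitals.
Kif22 (chr7:127042421-127042540, minus strand): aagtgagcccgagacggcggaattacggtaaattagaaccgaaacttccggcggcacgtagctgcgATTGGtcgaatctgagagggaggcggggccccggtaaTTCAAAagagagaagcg
Kif11 (chr19:37376262-37376381, plus strand): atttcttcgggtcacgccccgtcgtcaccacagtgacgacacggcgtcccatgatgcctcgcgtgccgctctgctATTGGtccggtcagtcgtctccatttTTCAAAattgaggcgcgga
Kif18b (chr11:102925125-102925244, minus strand): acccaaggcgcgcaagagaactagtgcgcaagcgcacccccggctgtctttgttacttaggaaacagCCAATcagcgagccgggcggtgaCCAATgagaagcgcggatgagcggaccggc
Klc1 (chr12:111758748-111758867, plus strand): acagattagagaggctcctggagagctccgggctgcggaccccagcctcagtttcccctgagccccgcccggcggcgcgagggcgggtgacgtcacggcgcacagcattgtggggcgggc
In these stretches of Kif22 and Kif11 the homology region begins 17 and 19 bases before the start and the CCAAT box 54 and 45 bases before it. Kif18b holds a pair of CCAAT boxes, and the Klc1 stretch holds neither motif.

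Kif22 gave 205, 193 and 356 on the P3 arrays, in the order of replicates 1 to 3 kept throughout, and 72.7, 96.4 and 40.6 on those of the adult. All P3 arrays were above all adult arrays, and every array was above background. The mean signal was 251 ± 90.8 at P3 and 69.9 ± 28.0 in the adult (SD, n = 3), a log2 difference of -1.88 with an SE of 0.38 (limma adjusted p = 0.0236). A second probe set of Kif22 was also called higher at P3, at -2.39 (limma adjusted p = 0.0393), and the remaining one had -1.58 (adjusted p = 0.213). Omitting replicate 3 of P3, or replicate 1 or 3 of the adult, ended the call, at a limma adjusted p of 0.0860, 0.0515 and 0.0908.

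Among the kinesins that move the spindle poles apart and bundle its midzone, Kif20a, which brings the chromosomal passenger complex to the central spindle, had signals of 38.7, 35.1 and 59.97 at P3 and of 12.5, 1.45 and 0.430 in the adult. It was above background on all 3 P3 arrays and on no adult array, so the fold is a bound, and the gene was at least 3.99-fold higher at P3. The adjusted p was 0.0571, and 0.0162 without adult replicate 1. Kif11, the motor that slides spindle poles apart, gave 60.6, 30.5 and 59.7 at P3 and 7.04, 22.1 and 13.8 in the adult. Its arrays did not overlap, and the log2 fold change of -1.89 (SE 0.57) missed the threshold at an adjusted p of 0.0839. The other measured Kif11 probe sets had -1.48 and -0.60 with overlapping arrays (limma adjusted p = 0.589 and 0.717). Kif23, a subunit of centralspindlin, which marks the plane of cleavage, had 16.3, 48.5 and 77.7 at P3 and 9.94, 27.1 and 9.17 in the adult. Here P3 replicate 1 fell below adult replicate 2, and without P3 replicate 1 the gene was called, at -2.18 and an adjusted p of 0.0491.

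Kif2c, which depolymerizes microtubules at centromeres, had signals of 67.5, 55.9 and 73.2 at P3 and of 26.4, 21.4 and 4.49 in the adult, a change of -2.25 (SE 0.67, adjusted p = 0.0820). A second Kif2c probe set had -0.34 with overlapping arrays (limma adjusted p = 0.867). The chromokinesin Kif4, which compacts chromosome arms, gave 16.3, 26.7 and 31.0 at P3 and 3.48, 15.8 and 1.56 in the adult. By their brightest probe sets, Kif2c and Kif4 had lower signals on every adult array than on any P3 array. The P3 replicate 1 signal of Kif4 was, however, below the background of that array. Of Kif20b, a motor of cytokinesis, and Kif18b, which trims astral microtubules, the log2 fold changes were -1.67 and -1.08, and of Kifc1, a minus-end motor that focuses spindle poles, -0.93. Their arrays did not overlap either, though Kifc1 was below background on P3 replicate 1. Without P3 replicate 1 the values of Kif20b and Kif18b were -1.20 and -0.64. Kif18a, which damps chromosome movements at the metaphase plate, had -0.90 with overlapping arrays. None of these 6 genes passed the test.

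**Figure D2:**
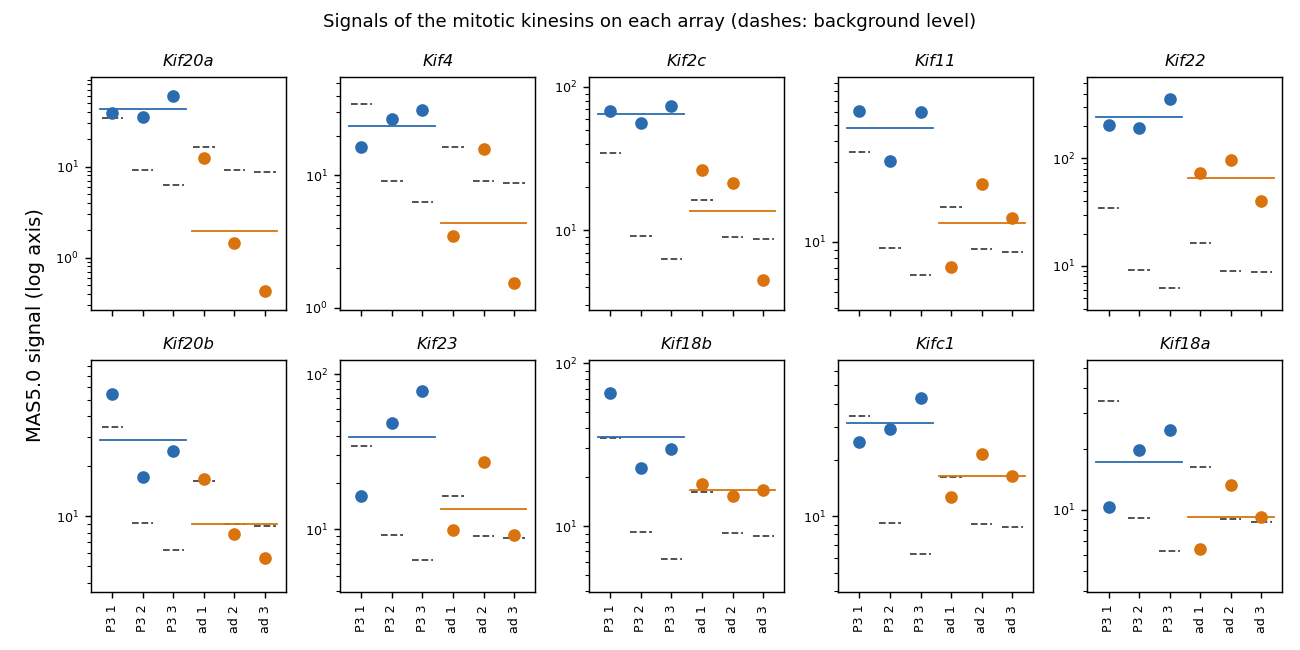
MAS5.0 signal (vertical log axis) of the 10 measured mitotic kinesins on each of the 6 arrays, P3 in blue and adult (ad) in orange, with lines at the geometric mean of each stage and dashes at the background level of each array. Geometric means are lower in the adult throughout, and only for Kif23 and Kif18a do the stages overlap. Many adult points, and some of P3 replicate 1, lie at or below their background level.

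The same direction was found in the other genes of the spindle and of cell division. Of 19 measured partners of the mitotic kinesins, all 19 were lower in the adult, beside 47.7% of all probe sets tested, with a median log2 fold change of -1.52. Over all genes 5.49% were called higher at P3, and so few calls give no result about this list or the next. Of the partners 2 were called, both higher at P3. They were Bub1, a kinase of the spindle checkpoint, with -3.07 (SE 0.67, limma adjusted p = 0.0307), and Nusap1, which binds spindle microtubules, with -1.67. Of 9 proliferation markers, Cdk1, the kinase of mitotic entry, and Top2a, which untangles DNA, were called higher at P3, and the median was -1.28. The stages did not overlap on 4 of the 9. The summed signal of the 9 was 1912 to 2759 at P3 and 876, 2207 and 1026 in the adult. Adult replicate 2 thus lay among the P3 arrays. The summed signal of the spindle partners ran from 1143 to 1698 on the P3 arrays and from 398 to 832 on the adult arrays. Markers of bone marrow moved the other way. The summed signal of 11 granulocyte precursor genes was 133 to 433 at P3 and 4021 to 18206 in the adult, with adult replicate 2 highest. Adult replicate 2 was also the highest adult array for Kif11, Kif23, Kif4, Kif22, Kif18a and Kifc1. For the other measured mitotic genes, Kif20a, Kif2c, Kif20b and Kif18b, adult replicate 1 was the highest. The part of marrow cells in these signals was not tested.

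The axonal kinesins were higher in the adult CSE in 12 of 13 genes, with a median log2 fold change of 0.79 and a range from -0.51 to 1.58. All 13 were measured, and all were above background on every adult array. Klc1 and Klc3 passed the test. On 6 genes, Klc1, Klc3, Klc4, Kif1b, Kif5b and Kif21a, the adult arrays all lay above the P3 arrays, where 15.5% of all probe sets tested did so. For the motors of neurons Kif5a, Kif5c, Kif3c, Kif1a and Kifc2 the arrays of the stages overlapped, and none was called. Some of the separated genes, such as Kif5b, are found in many tissues, so the class does not stand for neuronal motors alone.

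Klc1, the light chain of kinesin-1 in neurons and many other cells, had signals of 619, 399 and 566 at P3 and of 2704, 921 and 1508 in the adult. The adult arrays were all above the P3 arrays, though widely spread. The log2 difference was 1.58 with an SE of 0.39 (limma adjusted p = 0.0441). Omitting P3 replicate 2 or 3, or adult replicate 1 or 3, ended the call, at 0.136, 0.0960, 0.0794 and 0.154. It was also lost when all its probe sets were averaged, since the other pair of Klc1 probe sets gave 0.35 and 0.41. Klc3, another light chain of kinesin-1, had 84.7, 106 and 82.1 at P3 and 143, 237 and 228 in the adult, here with adult replicate 1 the lowest of the adult arrays. Its log2 fold change was 1.13 (SE 0.28, limma adjusted p = 0.0458), and it was called without adult replicate 1 (adjusted p = 0.0270) but with none of the other 5 arrays left out (0.0593 to 0.200). For Klc4, the remaining light chain, the log2 fold change was 0.84 (adjusted p = 0.112).

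By their brightest probe sets, the heavy chains of kinesin-1 differed in their spread between adult arrays. Kif5b, the heavy chain found in all tissues, had 657, 771 and 775 at P3 and 1262, 1314 and 1232 in the adult, so the adult arrays were close together and well above the P3 arrays. The log2 fold change of 0.79 (SE 0.21) was under the 2-fold threshold, with an adjusted p of 0.0531. Other Kif5b probe sets were also higher in the adult, but most had overlapping arrays. Among them, adult signals were 732, 1181 and 1382 at 0.74, and 568, 330 and 269 at 0.35, whereas a probe set at 0.55 did not overlap. Kif5a, a heavy chain of neurons, gave 168, 206 and 246 at P3 and 925, 184 and 449 in the adult. Kif5c, also neuronal, gave 268, 303 and 349 at P3 and 924, 321 and 488 in the adult. For both neuronal chains adult replicate 2 fell among the P3 arrays and adult replicate 1 was the highest of all 6. Kif5a was called without adult replicate 2, at a log2 difference of 1.66 (limma adjusted p = 0.0417), against 1.05 with all arrays (adjusted p = 0.256) and 0.49 without adult replicate 1. For Kif5c the change of 0.78 became 0.38 without adult replicate 1.

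The kinesin-3 motor Kif1b, which carries mitochondria and synaptic vesicle precursors, had signals of 359, 461 and 489 at P3 and of 932, 806 and 783 in the adult. Its adjusted p was 0.0349, but the log2 fold change of 0.95 lay just under the 2-fold threshold. For a second Kif1b probe set the value was 1.44 (limma adjusted p = 0.0249), and it was called. Of 7 measured Kif1b probe sets, 6 were higher in the adult, among them a pair at 0.10 and 0.18 with overlapping arrays. The remaining one had -0.82 (limma adjusted p = 0.200), with every adult array below every P3 array. Kif1a, the motor of synaptic vesicle precursors, gave 31.1, 27.1 and 19.2 at P3 and 85.1, 13.2 and 34.7 in the adult, and the log2 fold change of 0.42 turned to -0.24 without adult replicate 1. Kif3c, a neuronal kinesin-2, had 0.91 (adjusted p = 0.250) and was called without adult replicate 2, at a limma adjusted p of 0.0453, while without adult replicate 1 the change was 0.52. The log2 fold changes of Kifc2, a minus-end motor of neurons, Kif21a, a motor of axons, and Kif2a, which prunes axon branches, were 0.66, 0.32 and 0.20, and that of Kifc2 was 0.094 without adult replicate 1. Kif21b, found in axons and dendrites, was the only axonal gene with a lower mean in the adult, at -0.51 (adjusted p = 0.526).

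**Figure D3:**
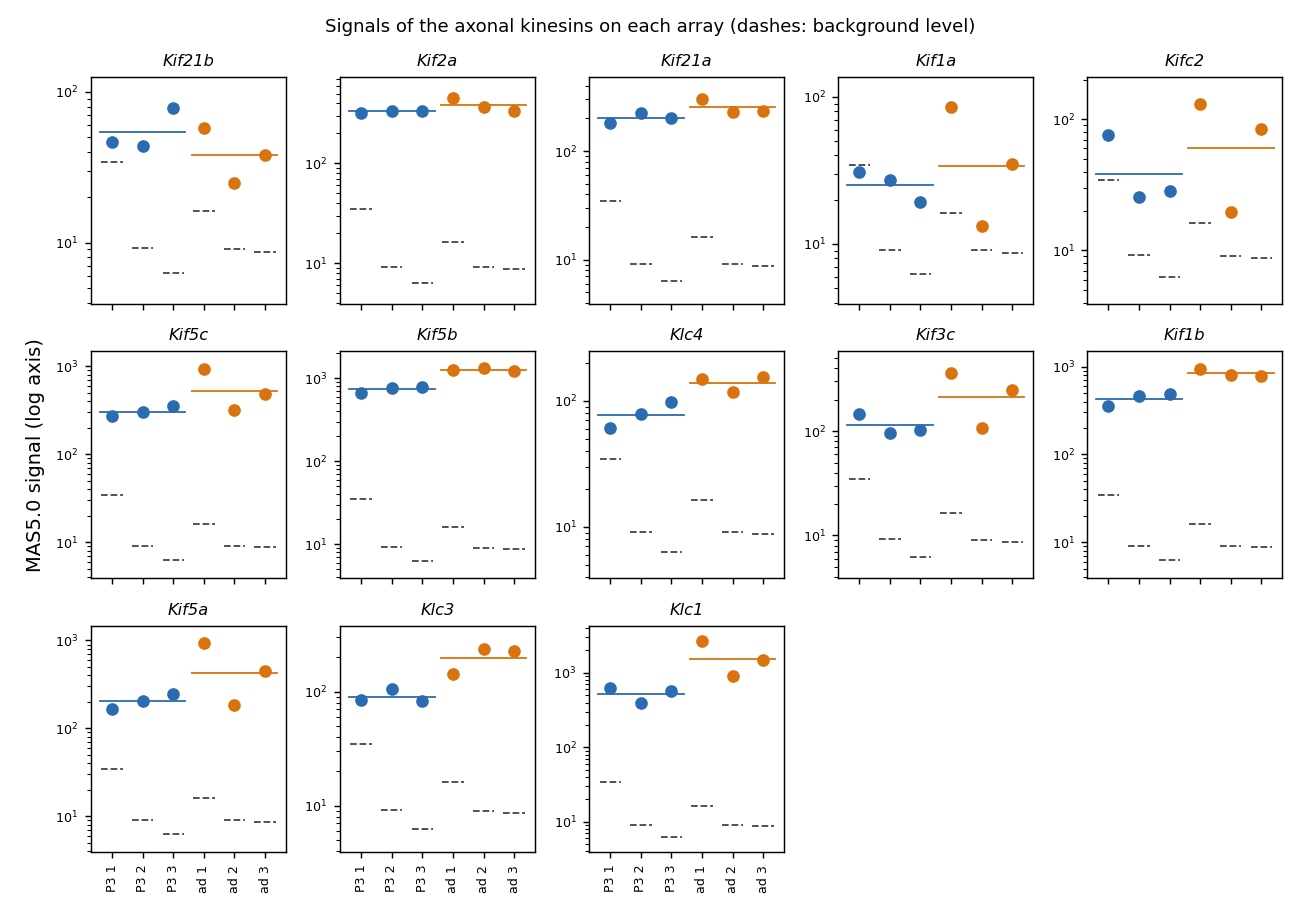
MAS5.0 signal (vertical log axis) of the 13 axonal kinesins on each of the 6 arrays, P3 in blue and adult (ad) in orange, with lines at the geometric mean of each stage and dashes at the background level. Kif5b and Kif1b have adult arrays close together and above P3, and Klc3 has them above P3 with adult replicate 1 the lowest. In contrast, Kif5a, Kif5c, Kif3c and Kif1a peak on adult replicate 1. Their adult replicate 2 lies near or within the P3 arrays or, for Kif1a, below them.

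Adult replicate 1 was the highest of the 6 arrays for 9 of the 13 axonal genes, and adult replicate 2 the lowest adult array for 9. Neuronal markers followed the same order. The summed signal of 20 neuronal genes was 6548 to 7861 at P3 and 32428, 10258 and 16377 on adult replicates 1, 2 and 3. Of these genes 4 were called higher in the adult, among them Scn8a, a sodium channel of axons, at 3.33 and Snap25, a protein of vesicle release, at 2.82, while Gap43, of growth cones, was called higher at P3 at -3.38. The part of nerve fibres left in the dissected tissue in the axonal kinesin signals was not tested. Without adult replicate 1 the median of the axonal class was 0.49, and 1 gene was called, against 1.00 and 3 genes without adult replicate 2. The summed signal of 7 Schwann cell genes took the same order among the adult arrays, with 21956, 6277 and 12368, beside 7188 to 12052 at P3. By limma 0 of the 7 were called and 2 had an unadjusted p under 0.05, and their part in the axonal signals was not tested either.

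Of 18 measured adaptors, which couple kinesins to cargo, 15 were higher in the adult, with a median of 0.62. Over all probe sets tested, 47.7% had lower adult values. By limma 4 adaptors were called, all with a rise in the adult, as were 4.53% of all genes. The 4 calls are too few for a result about the list. The summed adaptor signal was 5432 to 5589 at P3 and 9768, 7051 and 9270 on adult replicates 1, 2 and 3. Its adult arrays thus ranked as in the neuronal sum. Mapk8ip2, a scaffold carried by kinesin-1, had a log2 difference of 2.11 (SE 0.49, limma adjusted p = 0.0360). Kidins220, a cargo of kinesin-1 that relays neurotrophin signals, had 1.21 and Madd, an adaptor of the kinesin-3 motors, 1.08. Mapk8ip2 had 1071, 273 and 471 on the adult arrays, which is also the order of the neuronal sum. The other called adaptors, Kidins220, Madd and Fez2, did not take that order. The part of nerve fibres in the adaptor signals was not tested. The next list held dynein, the motor that walks the other way, its activator dynactin and some of their regulators. Of its 21 measured genes, 13 were higher in the adult, 1 was called higher there and 1 at P3, with a median of 0.23. The 13 include Bicd2 (0.76), Nde1 (0.67), Ndel1 (0.76) and Pafah1b1 (0.23), which are regulators and not subunits, so the count does not describe the subunits alone. The difference between the lists was not tested. The called dynein genes were the light chains Dynlt3, at 1.37, and Dynlrb2, at -2.17.

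Of the ciliary kinesins, 8 of 9 were measured, and Kif7 was the only one called. Their median of -0.36 was -0.19 without adult replicate 1. Kif7 had signals of 185, 105 and 92.5 at P3 and of 41.4, 37.1 and 53.5 in the adult, with no overlap between the stages. Mean signals were 128 ± 50.2 and 44.0 ± 8.46 (SD, n = 3), a log2 difference of -1.49 (SE 0.35, limma adjusted p = 0.0387). Its call held without P3 replicate 1 (adjusted p = 0.0410) and was lost when any other array was left out (0.0726 to 0.106). The gene has 1 probe set, so no second measurement bears on it.

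The motor complex of intraflagellar transport did not pass the test in either direction. Kif3a, one of its motors, had 72.4, 183 and 156 at P3 and 138, 147 and 128 in the adult, and the log2 fold change of 0.11 (SE 0.36) became -0.29 without P3 replicate 1. Kif3b, the partner motor, had -0.16 (SE 0.35) and Kifap3, the subunit that joins the pair to cargo, 0.42 (SE 0.27). In all 3 genes the arrays of the stages overlapped. For Kif17, a kinesin-2 of cilia and dendrites, the signals were 87.7, 31.7 and 16.4 at P3 and 4.39, 10.7 and 20.7 in the adult, or -1.85 on the log2 scale (SE 0.80, adjusted p = 0.207) with adult replicate 3 above P3 replicate 3, and -1.20 without P3 replicate 1. Kif24, which holds back cilia at the mother centriole, had -0.78. The motors of motile cilia, Kif6 and Kif9, were near background, on 4 of 6 arrays above it, with -0.23 and -0.50. Kif27, a relative of Kif7, was not measured, and of 10 measured motile cilia genes limma called 0, with 1 at an unadjusted p under 0.05.

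Of 23 measured genes of intraflagellar transport, the trains that kinesin-2 pulls, 21 were lower in the adult, but with a median of only -0.36 and 1 called, Ift43 at -1.01 (limma adjusted p = 0.0307). Their summed signal was 4081 to 4826 on the P3 arrays and 2885 to 3053 on the adult arrays, without overlap. Over all genes 5.49% were called higher at P3, and 47.7% of all probe sets tested were lower in the adult. The 1 call is therefore no result about the list.

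Among the other kinesins, Kif13b, which moves membrane vesicles along microtubules, had signals of 67.2, 91.7 and 112 at P3 and of 196, 265 and 343 in the adult. Every adult array was above every P3 array, and the log2 fold change was 1.57 (SE 0.30, limma adjusted p = 0.0187). It lost its call without replicate 2 of P3 or replicate 2 or 3 of the adult (adjusted p = 0.0568, 0.0508 and 0.104). Kif26b gave 93.2, 105 and 103 at P3 and 42.8, 19.6 and 30.7 in the adult, with the P3 arrays close together. The log2 difference was -1.76 (SE 0.37, limma adjusted p = 0.0254). Omitting replicate 2 or 3 of P3, or replicate 3 of the adult, ended this call, at 0.103, 0.0974 and 0.101. Kif26a, its close relative, had -2.002 with overlapping arrays (adjusted p = 0.235). Kifc3, a minus-end motor of epithelial junctions, gave 103, 129 and 143 at P3 and 175, 250 and 319 in the adult, and was called without adult replicate 1, at a log2 fold change of 1.19, but not with all arrays (0.96, adjusted p = 0.0810). The endosome motors Kif13a and Kif16b had -0.21 and -0.23, and Kif1c, a motor of Golgi traffic, 0.56, none of them called. Of 10 measured fibroblast and matrix genes, all 10 had lower means in the adult, as had Kif26b, with a median of -1.19, though 1 had only -0.07. Of the 10, 3 were called higher at P3, beside 5.49% of all genes. Their summed signal was 39550, 19971 and 17792 at P3, highest on P3 replicate 1, where Kif26b was lowest of the P3 arrays. Their part in the Kif26b signal was not tested.

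Set side by side on each array, the class means gave the following. The mean log2 signal of the measured mitotic genes was 5.28, 5.16 and 5.73 at P3 and 3.71, 3.98 and 2.77 in the adult. That of the axonal genes was 7.28, 7.21 and 7.32 at P3 and 8.50, 7.40 and 8.02 in the adult. The background level was 4.02, 3.18 and 3.12 on the log2 scale on the adult arrays, so the mitotic mean lay below it on adult replicates 1 and 3, and the size of the mitotic fall is uncertain. On P3 replicate 1 the mitotic mean of 5.28 was little above the background of that array, 5.11. With low signals raised to the background of their own array, the median log2 fold change of the mitotic genes was -1.44. This also lifted P3 values, since the level of P3 replicate 1 is the highest, so -1.44 is not a conservative value. With the same mean background added to every signal the median was -0.95. The ciliary mean was 5.77 ± 0.19 at P3 and 5.21 ± 0.20 in the adult (SD, n = 3). These means describe members chosen by name and class, with earlier results known, and were not tested.

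**Figure D4:**
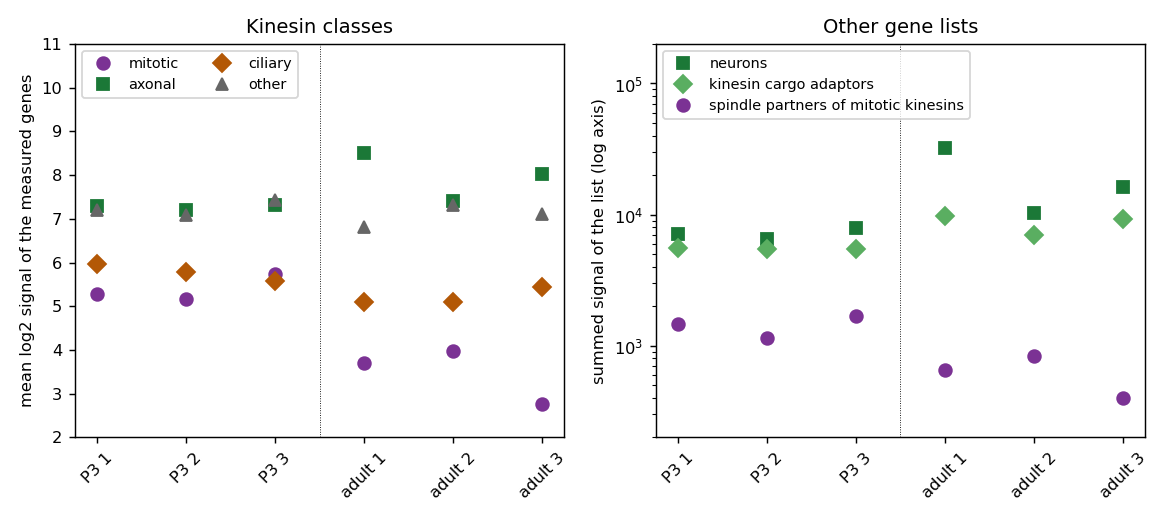
Left, mean log2 signal of the measured genes of each kinesin class on each of the 6 arrays, and right, the summed signal of 3 other gene lists on a log axis. The mitotic mean lies between 5.16 and 5.73 at P3 and between 2.77 and 3.98 in the adult, below background on adult replicates 1 and 3, and the axonal mean and the neuronal sum both peak on adult replicate 1.

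Probe sets of a gene did not always move alike. Of 22 kinesin genes with more than 1 measured probe set, 16 had all of them in 1 direction and 6 had both, namely Kif1b, Kif1c, Kif2a, Kif3a, Kif3b and Kif13a. All 15 measured probe sets of the mitotic genes were lower in the adult, and 32 of 36 of the axonal genes were higher. On 7 kinesin probe sets, of Kif1b, Kif1c, Kif2c, Kif3a, Kif5b, Kif11 and Kif13b, the signal of P3 replicate 1 was less than 0.25 of that on both other P3 arrays. This is 8.33% of the measured kinesin probe sets, beside 7.69% of all probe sets tested. For Kif13b this second probe set had 4.35 on P3 replicate 1 against 38.2 and 42.5 on the other P3 arrays, and its log2 fold change of 2.56 became 1.49 without that array, near the 1.57 of the brightest probe set. For Kif3a the probe set of this kind had 1.45, and 0.26 without P3 replicate 1.

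**Figure D5:**
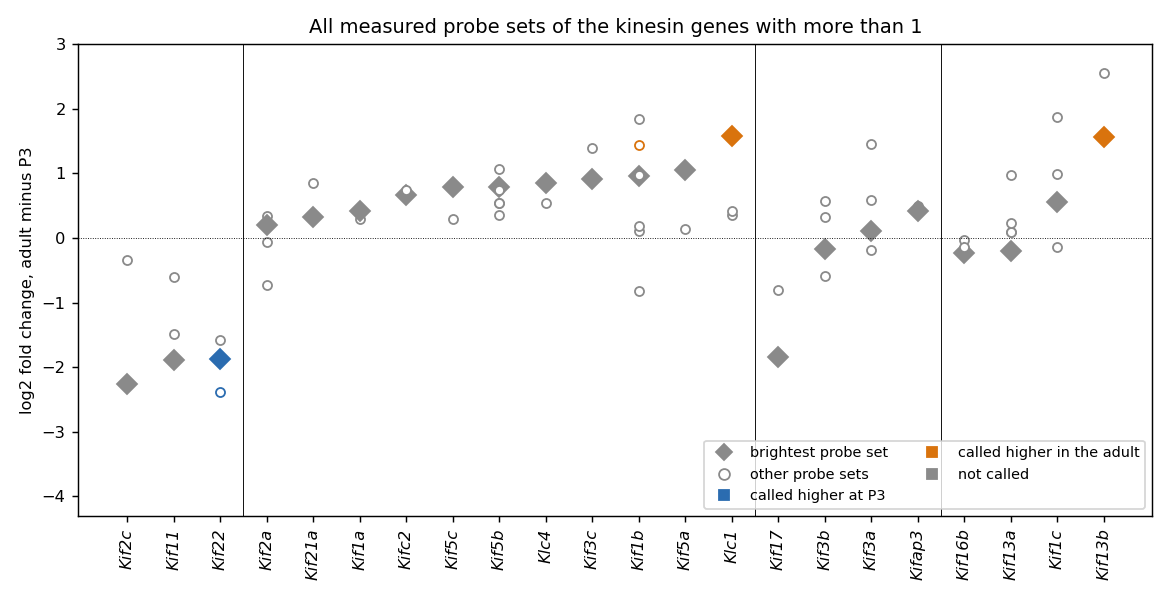
Vertical axis, log2 fold change of adult minus P3 for all measured probe sets of the 22 kinesin genes with more than 1, with the brightest probe set of each gene as a diamond, and vertical lines between the mitotic, axonal, ciliary and other classes. The probe sets of the 3 mitotic genes all lie below 0, and in 6 of the other genes they lie on both sides of it.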

How the data were processed

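Signals of 6 arrays, 3 per stage, were analysed. The authors scanned Affymetrix Mouse Genome arrays and obtained the deposited intensities, linear MAS5.0 signals scaled on each array, with Affymetrix software (GCOS version 1.2 in the submitters' processing notes, while the study's methods give a later one for the scans). The authors' detection calls and their SAM test, which needs relabelled samples, were not used here. All 6 columns were matched to a sample by its label. The array annotation of GEO's platform named 1 gene for 34945 probe sets, several for 932 and none for 9160, and 64 are controls. MAS5.0 subtracts mismatch signals, so low signals are noisy on the log2 scale.

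The background level of an array was the 90th percentile of 83 probe sets of olfactory, vomeronasal and bitter taste receptors. The 29036 probe sets above it on at least 3 arrays entered a single fit of stage on the log2 of the deposited signals, without further normalization, by lmFit and trended eBayes of limma 3.58.1 (R 4.3.3). A bound of at least N-fold compares the higher stage with signals of the other raised to background, where no array of that stage exceeded it. Depth does not apply to arrays, and their number limits the precision. The procedure was tested on simulated data.

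Members, classes and lists were chosen with earlier results of these data known. Every member could be named, and in each list up to 3 called genes of largest change and 1 called the other way. Alternatives were other scalings, filters, floors, an added background, no trend, array weights, a replicate block, the mean over probe sets, each array left out and, added after seeing the data, both replicates 1 left out.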

Additional observations from a re-analysis of the deposited data

How the results depend on the processing

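The medians of the mitotic, axonal and ciliary classes kept their sign in all 17 alternatives, and all measured mitotic genes were lower in the adult in 16 of them. With no signal filter 11 of 14 were lower, and Kif15, Kif2b and Kifc5b, none of them above background on more than 1 array, were higher. The number of calls was less stable, for the kinesins as for all probe sets tested. Of 29036 probe sets the main fit called 1125 higher at P3 and 984 in the adult. These numbers were 284 and 280 with a common median, 485 and 414 with no intensity trend and 1069 and 902 by quantile normalization. They were 3182 and 4411 with array weights and 342 and 234 without adult replicate 3. The kinesin counts below are to be read beside these. With all arrays scaled to the same median, and with no intensity trend, 0 kinesin genes were called in either direction, so the counts of mitotic, axonal, ciliary and other genes were each 0 by limma. At an unadjusted p under 0.05, 10 genes were lower and 4 higher in the adult under the common median, and 10 and 7 without the trend. By quantile normalization 2 genes were called higher at P3 and 1 in the adult, with 0 axonal and 0 ciliary calls. With array quality weights 12 were called higher at P3 and 8 in the adult, 9 of them mitotic, 5 axonal and 5 of the other class. Raising low signals to background, or adding the mean background to every signal, 5 genes were called higher at P3, of which 3 were mitotic. The first of these used the level of each array, which was highest on P3 replicate 1 and so lifted P3 values too. Without P3 replicate 1 and adult replicate 1 together, 5 were called higher at P3, 3 of them mitotic. When the probe sets of each gene were averaged, 2 mitotic genes and 1 axonal gene were called, and with no signal filter 1 axonal gene. Leaving out 1 array gave 0 to 4 genes higher at P3, 0 to 3 higher in the adult, 0 to 2 mitotic, 0 to 3 axonal, 0 to 1 ciliary and 0 to 3 other calls, with 0 of either direction without adult replicate 3, where 7 genes were lower and 6 higher in the adult at an unadjusted p under 0.05. None of the 6 called genes kept its call with every single array left out. With the mean background added the mitotic median was -0.95 and the ciliary median -0.14. The median of the other class turned to 0.18 with no signal filter and to 0.23 with the mean over probe sets. Genes not called changed sign in some settings: with the mean over probe sets Kif2a (-0.062), Kif3b (0.033) and Kif13a (0.23), with array weights Kif3a (-0.36), and without both replicates 1, a setting chosen after seeing the data, Kif1a (-0.093), Kif24 (0.39), Kif6 (0.11) and Kif3a (-0.30). Over the settings that left out 1 array or both replicates 1, the ranges were -0.24 to 1.10 for Kif1a, -1.36 to 0.39 for Kif24, -1.85 to 0.48 for Kif9, -0.48 to 0.22 for Kif6, -0.35 to 0.079 for Kif3b and -0.30 to 0.37 for Kif3a. The cause was not tested. With the replicate number as a block, 3 genes were called higher at P3 and 3 in the adult, the same 6 genes as without it. Over all probe sets the block gave 1318 and 1331 calls, against 1125 and 984 without it. Same-numbered arrays correlated at 0.182, 0.213 and 0.0762 for replicates 1, 2 and 3, above the -0.197 to 0.0543 of differently numbered arrays. The main fit did not treat the numbers as pairs. Signals near background limit the mitotic and motile cilia genes most.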

Other observations

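Kif27 was above background on P3 replicates 2 and 3 and on no adult array, with signals of 5.25, 9.17 and 6.58 at P3 and 1.47, 0.513 and 0.847 in the adult, and was therefore not tested. Kif28 had 35.8 on P3 replicate 1, just above the background of that array, and 0.246 to 1.78 on the other 5. The mitotic kinesins Kif14 and Kif2b and Kifc5b, a near copy of Kifc1, were above background on no array, and Kif15 on adult replicate 3 alone.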
